A study of Mus musculus with 8 samples.

Results

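The 8 genes described here make up the receptor pathway of glial cell line-derived neurotrophic factor (GDNF) and its targets in spermatogonia. They were chosen by name, with earlier results of these data known. They are the ligand Gdnf, the receptor subunits Gfra1 and Ret, and the transcription factors Etv5, Bcl6b, Lhx1, T and Pou3f1. These are 8 of the 55421 genes in the count table. The samples were bulk poly(A) RNA-seq libraries of mouse spermatogonial stem cell (SSC) cultures, made from the testes of 6-day-old pups on a C57BL/6XDBA/2 F1 hybrid background and kept on irradiated mouse embryonic fibroblasts as feeder cells. Germline knockout mice, labelled Stra8KO or Spo11KO, gave the cultures, which were given either vehicle (Veh) or NRRA, a medium poor in nutrients with added retinoic acid (RA), for 2 days per the study's methods. Each of the 4 groups had 2 libraries, with 20960794 to 27038868 counts per library.

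GDNF is a secreted growth factor that binds the GPI-anchored coreceptor GFRA1, and the GDNF and GFRA1 complex then activates the receptor tyrosine kinase RET. In the testis GDNF comes from somatic cells, chiefly Sertoli and peritubular myoid cells, and acts on undifferentiated spermatogonia, where it supports self-renewal and raises Etv5, Bcl6b, Lhx1, T and Pou3f1. In these cultures no Sertoli cells were added, and per the labels both GDNF and bFGF were added to the growth medium at 10 ng/ml, while the study's own list of medium components gives a higher dose of GDNF. According to the study's methods, NRRA medium is growth medium largely replaced by a balanced salt solution. Added GDNF and bFGF were thus diluted together with the nutrients in both genotypes. Dilution of GDNF, dilution of bFGF, loss of nutrients and RA cannot be told apart in the comparison of NRRA with Veh.

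Stra8 itself was counted at 2 and 0 in the Stra8KO Veh libraries and at 169 and 170 in Stra8KO NRRA, against 12604 and 16191 in the NRRA libraries labelled Spo11KO. Spo11 had 72 and 75 counts in Veh and 148 and 127 in NRRA where the label is Spo11KO, more than in Stra8KO (32 and 31, then 68 and 66), so gene-level counts do not check that label. The 8 pan-germ genes, which include Ddx4 and Dazl, were all detected, and summed to 705 to 708 counts per 1000000 counts (CPM) in Stra8KO Veh and to 1450 to 1501 CPM in Veh labelled Spo11KO. The 16 fibroblast markers summed to 24184 to 24751 CPM and to 12813 to 12880 CPM in the same groups. Both sums differed between genotypes, and in bulk samples fewer cells of a type and less RNA per cell cannot be told apart. CPM here are counts scaled by trimmed mean of M-values (TMM) library sizes.

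The upstream sequences of genes of the pathway that moved together, and of the ligand, are shown first. The RefSeq promoter table (assembly GRCm38.p6) had windows of 250 bases before to 50 bases after the start for 5 of the 8 genes (Gdnf, Gfra1, Etv5, Lhx1 and T), 7 windows in all. Ret, Bcl6b and Pou3f1 had no entry. The bases below lie upstream of the start and outside annotated exons of the gene, are written 5′ to 3′ on the gene's strand, and carry motif matches in capitals. They are chr15:7809798-7810047 (plus strand) for Gdnf, chr16:22439720-22439820 (minus) for Etv5, chr11:84525536-84525784 (minus) for Lhx1 and chr17:8434173-8434422 (plus) for T. The 149 bases next to this Etv5 start lie in an exon and are left out. Gdnf and Etv5 each had another window, with starts at chr15:7813727 and chr16:22438368. Those windows held no motif match and are not shown.
Gdnf: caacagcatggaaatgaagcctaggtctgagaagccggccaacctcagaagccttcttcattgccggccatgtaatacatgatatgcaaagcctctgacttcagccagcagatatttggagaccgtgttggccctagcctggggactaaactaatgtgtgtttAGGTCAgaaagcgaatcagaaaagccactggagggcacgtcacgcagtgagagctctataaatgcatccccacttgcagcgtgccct
Etv5: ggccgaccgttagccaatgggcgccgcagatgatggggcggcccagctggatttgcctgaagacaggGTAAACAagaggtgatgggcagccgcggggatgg
Lhx1: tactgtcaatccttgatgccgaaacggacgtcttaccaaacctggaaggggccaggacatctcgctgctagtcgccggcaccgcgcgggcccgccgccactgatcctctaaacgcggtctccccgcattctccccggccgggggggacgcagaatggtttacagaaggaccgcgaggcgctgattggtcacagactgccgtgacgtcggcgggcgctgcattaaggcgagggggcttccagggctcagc
T: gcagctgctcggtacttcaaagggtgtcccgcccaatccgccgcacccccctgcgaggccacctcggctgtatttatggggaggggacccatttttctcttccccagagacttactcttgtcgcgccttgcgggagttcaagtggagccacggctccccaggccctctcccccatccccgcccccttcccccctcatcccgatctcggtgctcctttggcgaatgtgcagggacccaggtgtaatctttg

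The search covered 4 letter strings on both strands of each window of 300 bases. The Gdnf sequence holds the nuclear receptor half-site AGGTCA at position -87 from the start, a string found in 16.3% of all 32851 windows. The Etv5 sequence holds the forkhead string GTAAACA at position -183, found in 3.65% of windows. The ETS core CCGGAA, found in 14.9% of windows, occurred once, at position -156 of the Gfra1 window, where it lies in an annotated exon. The T-box half-site TCACACC, found in 3.98% of windows, occurred in none of the 7. These matches are letters in a window and say nothing about binding.

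The first question was how the pathway responded to NRRA in each genotype. In the cultures labelled Spo11KO, which carry no Stra8 knockout per the labels, all 8 genes fell, by 0.41 (Gdnf) to 5.36 (T) on the log2 scale. In the Stra8KO cultures 6 fell less, by 0.53 to 1.50, Gfra1 rose by 0.80, and Gdnf did not pass the test. By edgeR's quasi-likelihood test at an adjusted p of 0.05, the 8 falls among cultures labelled Spo11KO stand beside 25.5% of all 20588 tested genes called lower and 50.3% called in either direction. The 6 falls and 1 rise in Stra8KO stand beside 20.1% called lower and 21.4% called higher (41.5% in all). The median log2 change of the 8 genes was -2.81 for cultures labelled Spo11KO and -0.62 for Stra8KO, against a median near 0 (0.013) over all tested genes in both.

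**Figure D1:**
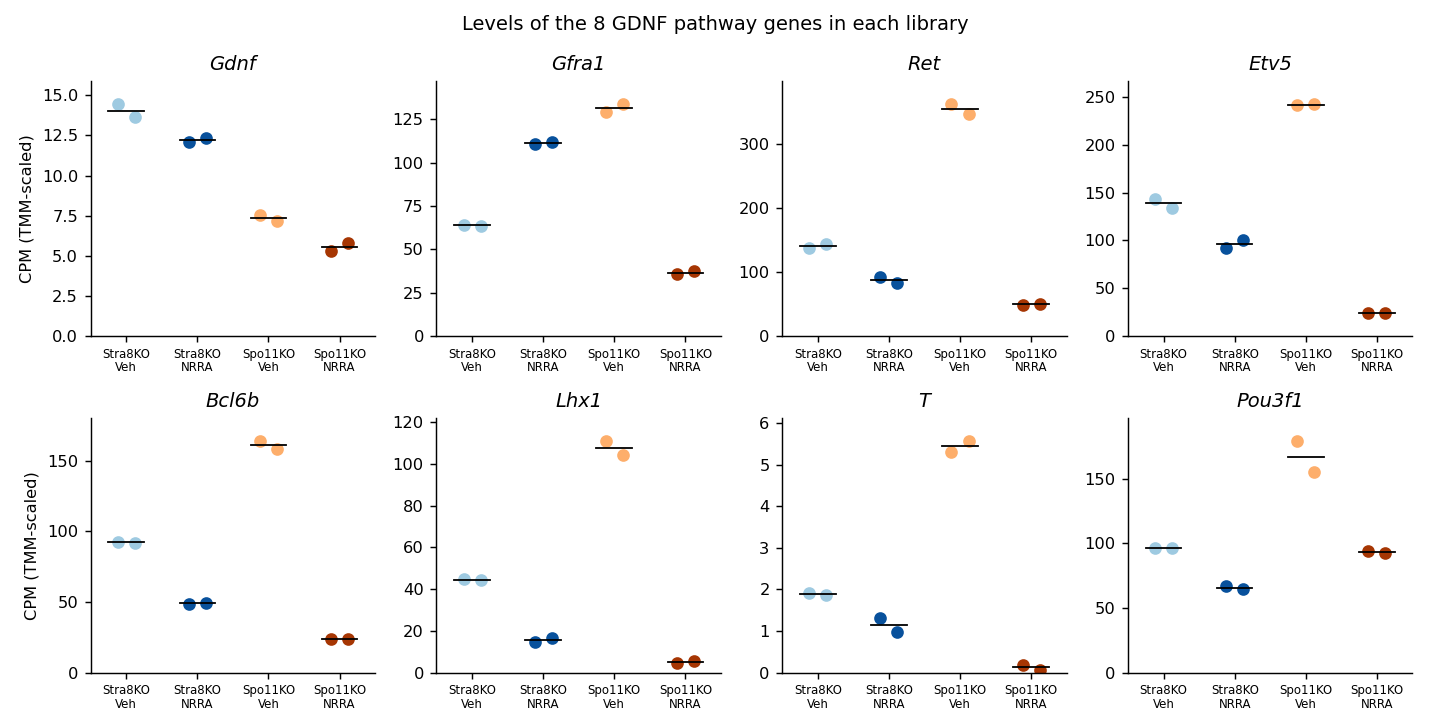
Level of each of the 8 genes in TMM-scaled CPM (vertical axes, from 0) in the 4 groups; each point is 1 library and each bar the mean of 2. Ret, Etv5, Bcl6b, Lhx1 and T share 1 order of groups, with Veh labelled Spo11KO highest and NRRA labelled Spo11KO lowest, while Gfra1 is second highest in Stra8KO NRRA and Gdnf is highest in Stra8KO Veh.

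Gfra1 (ENSMUSG00000025089, chr19:58235604-58455909, minus strand, GRCm38) encodes the coreceptor that binds GDNF and marks undifferentiated spermatogonia. Its level was 129 and 134 CPM in Veh labelled Spo11KO and 35.4 and 37.4 CPM in NRRA, a fall of 1.85 on the log2 scale (SE 0.0516, edgeR adjusted p = 2.99e-29). In Stra8KO it was 64.0 and 63.5 CPM in Veh and 110 and 112 CPM in NRRA, a rise of 0.80 (SE 0.0506, edgeR adjusted p = 3.76e-17). Gfra1 therefore moved in opposite directions in the 2 genotypes, with no overlap between groups, and was the 1 gene of the 8 to rise in Stra8KO. The difference between both NRRA effects was 2.65 (SE 0.0723, edgeR adjusted p = 1.72e-28). The antisense gene Gm16277 shares 416 exon bases with Gfra1 and had 54 to 231 counts, highest and lowest in the same groups as Gfra1. Whether counting used strand is not given in the sources used here, so reads from the shared bases cannot be told apart. Gfra1 has 5476 exon bases in all.

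Ret (ENSMUSG00000030110, chr6:118151745-118197718, minus strand) encodes the kinase that carries the signal into the cell. It stood at 363 and 348 CPM in Veh labelled Spo11KO and at 48.5 and 49.9 CPM in NRRA, a fall of 2.85 (SE 0.0488, edgeR adjusted p = 1.20e-36). In Stra8KO it went from 138 and 144 CPM in Veh to 92.1 and 82.8 CPM in NRRA, a fall of 0.69 (SE 0.0485, edgeR adjusted p = 1.06e-15). Both groups on NRRA lay below both groups on Veh. The fall was smaller in Stra8KO by 2.16 (SE 0.0686, edgeR adjusted p = 3.82e-26).

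Compared per kilobase of exon, the receptor subunits changed their ratio. Ret per Gfra1 was 1.75 and 1.84 in Stra8KO Veh and 2.28 and 2.11 in Veh labelled Spo11KO. In NRRA it was 0.676 and 0.599 in Stra8KO and 1.11 and 1.08 in cultures labelled Spo11KO. Ret transcripts thus exceeded Gfra1 transcripts in every library except the Stra8KO NRRA pair, where Gfra1 rose and Ret fell. As RPKM, which is CPM per kilobase of exon, the group means of Ret in the order Stra8KO Veh, Stra8KO NRRA, then Veh and NRRA labelled Spo11KO were 20.9, 12.9, 52.6 and 7.28, and those of Gfra1 were 11.7, 20.3, 24.0 and 6.65.

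Etv5 (ENSMUSG00000013089, chr16:22381309-22439719, minus strand) encodes an ETS factor needed for SSC self-renewal and induced by GDNF and FGF. It stood at 242 and 243 CPM in Veh labelled Spo11KO and at 23.5 and 24.1 CPM in NRRA, a fall of 3.34 (SE 0.0537, edgeR adjusted p = 1.15e-37), or 10.2-fold. The Stra8KO libraries held 143 and 134 CPM in Veh and 92.4 and 100 CPM in NRRA, a fall of 0.53 (SE 0.0480, edgeR adjusted p = 2.78e-12). Etv5 so kept most of its level in Stra8KO NRRA and little of it in NRRA labelled Spo11KO, and the effects differed by 2.82 (SE 0.0725, edgeR adjusted p = 2.53e-29). The 101 upstream bases printed for Etv5 carry the forkhead string and no ETS core.

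Bcl6b and Lhx1, which encode a zinc finger repressor and a LIM homeobox factor that GDNF induces in SSCs, had nearly the same pattern at different levels. Bcl6b (ENSMUSG00000000317, chr11:70224128-70229798, minus strand) was at 164 and 158 CPM in Veh labelled Spo11KO against 23.7 and 23.5 CPM in NRRA, a fall of 2.77 (SE 0.0539, edgeR adjusted p = 9.99e-35). In Stra8KO it was at 92.5 and 91.6 CPM in Veh against 48.8 and 49.0 CPM in NRRA, a fall of 0.91 (SE 0.0528, edgeR adjusted p = 2.09e-18). Both libraries of each group lay close together and the groups did not overlap. The difference between both effects was 1.86 (SE 0.0765, edgeR adjusted p = 2.64e-22).

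Lhx1 (ENSMUSG00000018698, chr11:84518284-84525535, minus strand) went from 111 and 104 CPM in Veh labelled Spo11KO to 4.44 and 5.36 CPM in NRRA, a fall of 4.45 (SE 0.0825, edgeR adjusted p = 1.94e-35), or 21.8-fold. In Stra8KO it was 44.7 and 44.2 CPM in Veh and 14.6 and 16.8 CPM in NRRA, a fall of 1.50 (SE 0.0788, edgeR adjusted p = 8.33e-20). This was the only one of the 8 genes that changed by at least 2-fold in Stra8KO. Even so, its fall there was smaller by 2.95 (SE 0.126, edgeR adjusted p = 8.20e-22).

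T (brachyury; ENSMUSG00000062327, chr17:8434423-8442496, plus strand), a T-box factor whose transcription GDNF raises in SSCs, had the lowest counts of the 8 genes. Veh labelled Spo11KO held 126 and 128 counts of T, and NRRA 5 and 2. From these counts T was 42.9-fold lower in NRRA, with an exact 95% counting interval of 20.5 to 108, which covers counting error only. The fitted fall was 5.36 (SE 0.346, edgeR adjusted p = 6.46e-17). The Stra8KO libraries held 43 and 37 counts of T in Veh, and 27 and 21 in NRRA, a change of -0.74 (SE 0.304) at an edgeR adjusted p of 0.0477. That call lies at the threshold and was lost with the DESeq2 Wald test (adjusted p = 0.110) and without Stra8KO NRRA replicate 2 (-0.54, adjusted p = 0.290), and over all alternatives its adjusted p ranged from 0.0102 to 0.290. The difference between the effects, 4.62 (SE 0.561, edgeR adjusted p = 1.46e-08), was past the threshold in every alternative run.

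Pou3f1 (ENSMUSG00000090125, chr4:124656807-124660655, plus strand), a POU domain factor that GDNF raises in SSCs, fell in both genotypes. Its levels were 179 and 155 CPM in Veh labelled Spo11KO and 94.0 and 92.4 CPM in NRRA, a fall of 0.84 (SE 0.0510, edgeR adjusted p = 2.22e-17). In Stra8KO they were 96.5 and 96.2 CPM in Veh and 66.6 and 64.2 CPM in NRRA, a fall of 0.56 (SE 0.0564, edgeR adjusted p = 6.07e-11). The libraries of Veh labelled Spo11KO were the most spread for this gene, yet both lay above every other library. The effects differed by 0.28 (SE 0.0760, edgeR adjusted p = 0.00455), a call that was lost without the first of those Veh libraries (0.17, adjusted p = 0.0923) and with scaling to total counts (0.19, adjusted p = 0.0680). The antisense gene Gm2164 shares 330 exon bases with Pou3f1 and had 15 to 60 counts.

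Gdnf (ENSMUSG00000022144, chr15:7810846-7837575, plus strand), the ligand, was transcribed in all libraries at 137 to 323 counts. It stood at 14.4 and 13.6 CPM in Stra8KO Veh and 12.1 and 12.3 CPM in Stra8KO NRRA, a change of -0.20 (SE 0.106, 95% interval -0.42 to 0.01, edgeR adjusted p = 0.128). In cultures labelled Spo11KO it was 7.54 and 7.18 CPM in Veh and 5.29 and 5.77 CPM in NRRA, a fall of 0.41 (SE 0.133, edgeR adjusted p = 0.00914). This fall is small, and the call was lost without replicate 1 of Veh labelled Spo11KO (adjusted p = 0.0676) or replicate 1 of its NRRA group (adjusted p = 0.0614). The difference between both effects was 0.21 with a 95% interval of -0.14 to 0.55 (edgeR adjusted p = 0.430), so Gdnf was the 1 gene of the 8 for which this difference did not pass the test.

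Gdnf and the fibroblast markers were both higher in Stra8KO Veh than in Veh labelled Spo11KO. Per 100000 fibroblast marker counts the Stra8KO Veh libraries held 59.7 and 55.1 Gdnf counts, and Veh labelled Spo11KO 58.8 and 55.7. In NRRA these values were 30.5 and 31.4, and 25.6 and 28.9. The summed markers rose to 39207 to 39717 CPM in Stra8KO and 19970 to 20664 CPM in cultures labelled Spo11KO. The 16 markers split, with 11 called higher and 4 lower in Stra8KO, beside 21.4% and 20.1% of all tested genes. In cultures labelled Spo11KO the calls were 11 higher and 5 lower, beside 24.7% and 25.5%. Mean Col1a1 rose from 4145 to 11431 CPM in Stra8KO, whereas mean Fn1 fell from 10530 to 7869 CPM. Of the 8 Sertoli markers 5 passed the count filter, and the list summed to 317 to 335 CPM in Stra8KO Veh, 162 to 167 CPM in Veh labelled Spo11KO, 141 to 144 CPM in Stra8KO NRRA and 68.8 to 72.8 CPM in NRRA labelled Spo11KO, with Amh, Cldn11 and Tsx below the filter. Inhbb made up most of that sum (mean 282 CPM in Stra8KO Veh and 113 CPM in Stra8KO NRRA), whereas Wt1 of the same list rose in Stra8KO from a mean of 3.83 CPM in Veh by 1.64 on the log2 scale (SE 0.144, edgeR adjusted p = 8.23e-13). The 4 peritubular and smooth muscle markers summed to at most 58.0 CPM in Stra8KO Veh, 29.7 to 31.9 CPM in Veh labelled Spo11KO, 822 to 859 CPM in Stra8KO NRRA and 400 to 420 CPM in NRRA labelled Spo11KO. Nearly all of this sum in NRRA was Acta2 (means of 823 and 399 CPM), while Myh11, Cnn1 and Des stayed at or below 7.43 CPM in every library. The part of these cells in the Gdnf result was not tested.

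**Figure D2:**
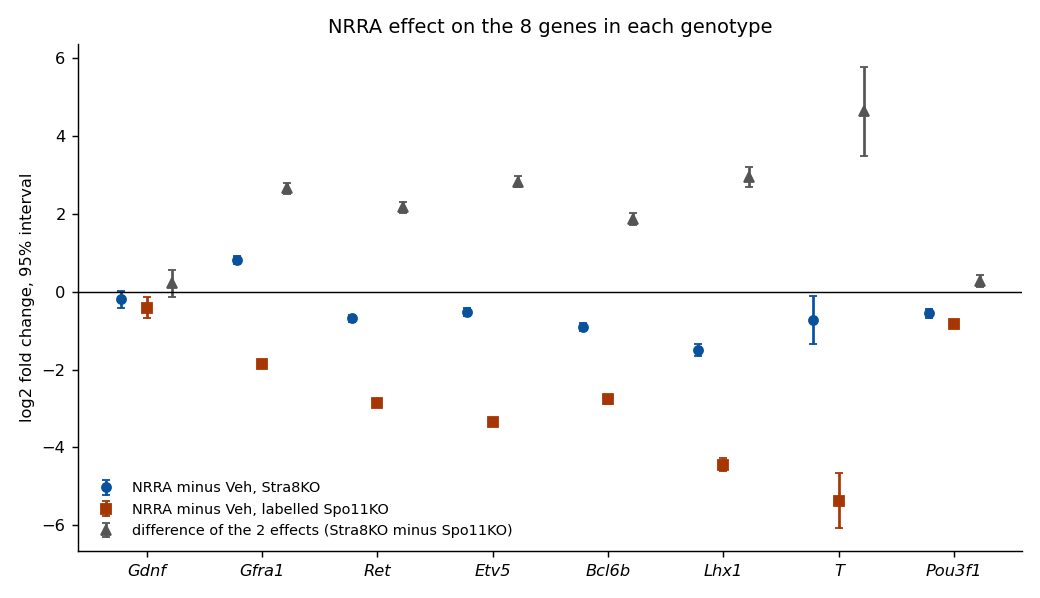
Log2 fold change of NRRA against Veh in Stra8KO (circles) and in cultures labelled Spo11KO (squares), and the difference between both effects (triangles), for the 8 genes; bars are 95% intervals. All squares lie below 0, the Gfra1 circle lies above 0 at 0.80, and the triangles lie between 0.21 for Gdnf and 4.62 for T.

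Taking the difference between both NRRA effects over the 8 genes, 7 were called, all with a higher (less negative or positive) effect in Stra8KO. The background was 14.6% of tested genes called in that direction, 10.1% in the other and 24.7% in either. As the 8 genes were chosen with earlier results of these data known, this comparison is a description and not a test. The median difference was 2.41, against 0.013 over all tested genes. Gfra1, Ret, Etv5, Bcl6b, Lhx1 and T kept this call under every scaling and with every library left out in turn.

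The second question was how genotypes compared within a medium. These comparisons use the same 8 libraries as those of NRRA with Veh, so their values are not independent of them. In Veh, 7 of the 8 genes were lower in Stra8KO than in cultures labelled Spo11KO and Gdnf was higher, with 30.7% of all tested genes called lower and 31.5% higher (62.1% in all). The log2 differences were -1.52 (SE 0.206) for T, -1.33 (SE 0.0449) for Ret, -1.28 (SE 0.0603) for Lhx1, -1.04 (SE 0.0498) for Gfra1 and -0.79 to -0.80 for Etv5, Bcl6b and Pou3f1. Gdnf was higher by 0.93 (SE 0.116, edgeR adjusted p = 3.29e-09).

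These Veh differences depended on the scaling. By TMM the 8 pan-germ genes were all called lower in Stra8KO Veh (-1.15 to -0.85), beside 30.7% of all tested genes. The 16 fibroblast markers were all called higher (median 0.89), beside 31.5%. Scaling each library to its pan-germ counts moved the median of all tested genes by 1.06 on the log2 scale in either medium. On that scale the Gfra1 difference in Veh was 0.02 (SE 0.0541) and did not pass the test (edgeR adjusted p = 0.726), with 90.3 counts per 1000 pan-germ counts in Stra8KO and 89.0 in the group labelled Spo11KO. Etv5 (0.26), Bcl6b (0.26) and Pou3f1 (0.27) were then higher in Stra8KO, Ret (-0.27) and Lhx1 (-0.21) remained lower, and T (-0.46, adjusted p = 0.0502) did not pass. Scaling to total counts moved the median of all tested genes by -0.11 in Veh and -0.21 in NRRA and changed no direction among the 8 genes.

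In NRRA the order was the other way round. Gdnf, Gfra1, Ret, Etv5, Bcl6b, Lhx1 and T were higher in Stra8KO under each of the 4 scalings, beside 35.2% of tested genes called higher and 29.1% lower (64.3% in all). The differences were 3.11 (SE 0.534) for T, 2.02 (SE 0.0565) for Etv5, 1.67 (SE 0.112) for Lhx1, 1.61 (SE 0.0525) for Gfra1, 1.14 (SE 0.122) for Gdnf, 1.05 (SE 0.0603) for Bcl6b and 0.83 (SE 0.0519) for Ret. By counts alone T was 8.93-fold higher, with an exact 95% interval of 4.02 to 23.4. Pou3f1 was lower by TMM (-0.51, SE 0.0554, edgeR adjusted p = 1.66e-10) and higher when scaled to pan-germ counts (0.55, SE 0.0675, adjusted p = 2.48e-08). Pan-germ sums were 792 to 832 CPM in Stra8KO NRRA and 1666 to 1726 CPM in NRRA labelled Spo11KO. By TMM, Gfra1, Ret, Etv5, Bcl6b, Lhx1 and T were thus higher in Stra8KO NRRA while the pan-germ sums were lower. Like Gdnf, the fibroblast marker sums were higher there (39207 to 39717 against 19970 to 20664 CPM).

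**Figure D3:**
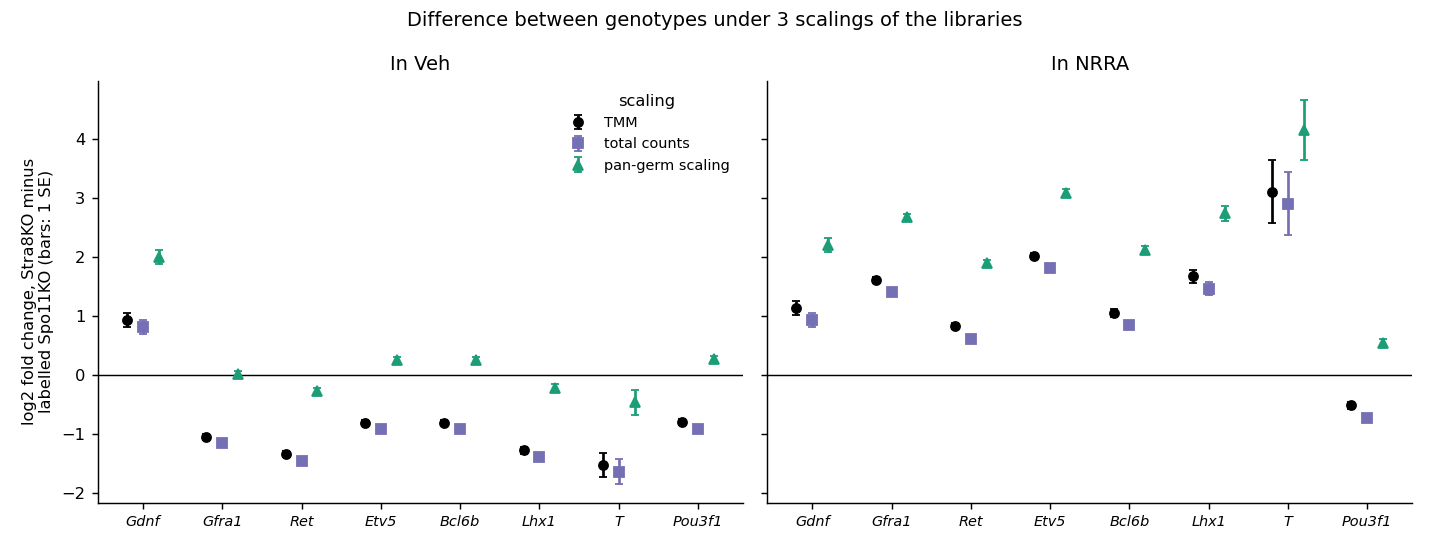
Log2 difference of Stra8KO minus cultures labelled Spo11KO for the 8 genes in Veh (left) and NRRA (right) under TMM, total count and pan-germ scaling; bars are 1 SE. In Veh, Etv5, Bcl6b and Pou3f1 cross 0 under pan-germ scaling and Gfra1 lies near it at 0.02, whereas in NRRA only Pou3f1 does.

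Ordered by level, Ret, Etv5, Bcl6b, Lhx1 and T ran from Veh labelled Spo11KO through Stra8KO Veh and Stra8KO NRRA to NRRA labelled Spo11KO. Neighbouring groups of 2 libraries each did not overlap in CPM for the 8 genes. The share of all tested genes without such overlap was not computed, so this describes levels and is no trait of the pathway. The closest neighbours were those of Pou3f1, for which Stra8KO Veh (mean 96.3 CPM) and NRRA labelled Spo11KO (mean 93.2 CPM) were not compared by a test.

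The rest of the GDNF family moved in both directions. Of the 10 genes listed (ligands Nrtn, Artn, Pspn and Gdf15, receptors Gfra2, Gfra3, Gfra4 and Gfral, and the alternative GDNF receptors Ncam1 and Sdc3) 8 were tested, and Gfral had no count in any library. In Stra8KO 2 were higher and 3 lower in NRRA, beside 21.4% and 20.1% of all tested genes. In cultures labelled Spo11KO 3 were higher and 3 lower, beside 24.7% and 25.5%, and the medians were -0.01 in both. Gfra3, which encodes the coreceptor for artemin, went from 0.581 and 0.252 CPM to 14.7 and 20.2 CPM in Stra8KO, a rise of 5.34 (SE 0.250, edgeR adjusted p = 2.62e-20). Cultures labelled Spo11KO held 1.05 and 0.870 CPM of Gfra3 in Veh and 9.80 and 8.67 CPM in NRRA, a rise of 3.25 (SE 0.228, edgeR adjusted p = 5.10e-15). Gfra3 was thus low in all Veh libraries and high in all NRRA libraries.

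Ncam1, which encodes a cell adhesion molecule that can bind GDNF with GFRA1, rose by 1.55 (SE 0.0477) in Stra8KO and 1.35 (SE 0.0507) in cultures labelled Spo11KO. Gfra2, which encodes the neurturin coreceptor, fell by 1.19 (SE 0.182) and 0.93 (SE 0.221). Nrtn, which encodes neurturin, rose by 1.00 (SE 0.141) in cultures labelled Spo11KO and had a change of 0.14 (SE 0.194, edgeR adjusted p = 0.597) in Stra8KO. The difference between the Nrtn effects was -0.85 (SE 0.243, edgeR adjusted p = 0.00696).

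The adaptors, kinases and ubiquitin ligases downstream of RET changed in both directions. All 38 of this list were tested. In Stra8KO 7 were higher and 13 lower in NRRA, 20 calls in all, where 41.5% of all tested genes were called. In cultures labelled Spo11KO 10 were higher and 17 lower, 27 calls in all, where 50.3% of all tested genes were called. The medians were -0.07 and -0.04. Cblb, a ubiquitin ligase, fell by 1.31 (SE 0.0486) in Stra8KO, and its mean went from 104 to 72.2 CPM in cultures labelled Spo11KO. Grb10, an adaptor that binds receptor tyrosine kinases, rose by 1.09 (SE 0.0390) in Stra8KO and 0.95 (SE 0.0407) in cultures labelled Spo11KO, Gab2 fell by 0.71 (SE 0.0909) in Stra8KO, and Fyn fell by 0.89 (SE 0.0494) in cultures labelled Spo11KO. The feeder cells also express such general kinases and adaptors, and their part in these values was not tested. For the difference between the effects 10 were higher and 8 lower, beside 14.6% and 10.1% of all tested genes, with a median of 0.02, and the 18 calls went down to 11 with the DESeq2 Wald test and to 11 without Stra8KO NRRA replicate 1.

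A list of 9 other genes linked to GDNF or ETV5 in spermatogonia was described in the same way. It too was chosen with earlier results of these data known. In cultures labelled Spo11KO 8 of the 9 fell (median -1.37), where 25.5% of all tested genes were called lower, and Ccl9, which encodes a chemokine, rose by 1.01 (SE 0.277). In Stra8KO 3 were higher and 3 lower, with a median of 0.01, beside 21.4% and 20.1% of all tested genes. Egr3 and Egr2, which encode immediate-early zinc finger factors, fell by 5.12 (SE 0.123) and 3.41 (SE 0.0895) in cultures labelled Spo11KO. In Stra8KO Egr3 fell by 1.31 (SE 0.110), and mean Egr2 went from 24.0 CPM in Veh to 12.5 CPM in NRRA. Nanos2, which encodes an RNA-binding protein that maintains SSCs, went from 7.79 and 8.79 CPM to 0.232 and 0.648 CPM in cultures labelled Spo11KO, a fall of 4.18 (SE 0.249, edgeR adjusted p = 5.54e-18), and in Stra8KO stood at 1.97 and 1.71 CPM in Veh and 1.64 and 2.08 CPM in NRRA.

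Id4, which encodes an inhibitor of differentiation found in SSCs, was the gene of this list whose directions matched those of Gfra1 with a change past 1 log2 unit in both genotypes. It rose from 11.7 and 10.2 CPM to 27.5 and 27.6 CPM in Stra8KO, by 1.33 (SE 0.0974, edgeR adjusted p = 3.90e-15), and fell by 1.37 in cultures labelled Spo11KO, from 39.1 and 38.7 CPM to 13.5 and 16.5 CPM. Mycn also rose in Stra8KO (0.32, SE 0.0622) and fell in cultures labelled Spo11KO (-1.08, SE 0.0603). Cxcr4, which encodes a chemokine receptor, fell in both, by 0.99 (SE 0.203) and 2.11. Of the 9 genes 8 had a higher NRRA effect in Stra8KO by the test of the difference, against 14.6% of all tested genes, and the median difference was 1.40.

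**Figure D4:**
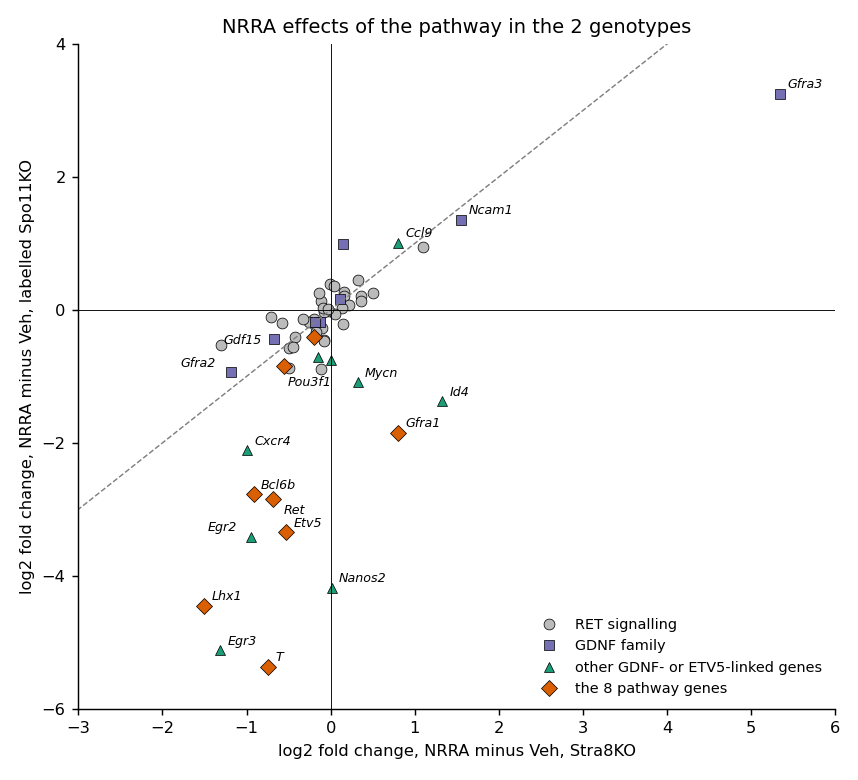
Log2 fold change of NRRA against Veh in Stra8KO (horizontal) and in cultures labelled Spo11KO (vertical) for the 8 pathway genes (diamonds), the GDNF family (squares), RET signalling genes (circles, 1 gene of the list not shown) and other GDNF- or ETV5-linked genes (triangles); the dashed line marks equal effects. Gfra3 lies at the upper right, while Gfra1 and Id4 lie right of 0 and below it and T, Egr3, Lhx1 and Nanos2 lie lowest.

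By Pearson's r of log2 CPM over the 8 libraries, among 14941 genes compared, the genes most like Gfra1 were Foxi3 (0.994), Ifitm1 (0.991) and Hunk (0.990). Those most like Ret were Bhlhe41 (0.997), Sdc4 (0.996) and Rasl11a (0.996), and those most like Etv5 were Adgrl2 (0.998), Amot (0.997) and Mypop (0.996). The libraries form 4 pairs that share culture and medium, so these values describe the likeness of 4 group levels and carry no test.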

How the data were processed

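The authors deposited raw counts per Ensembl gene in 1 table, with each library in its own column and nothing normalized or pooled. Per the study's methods, libraries were made from poly(A) RNA with strand selection, and the submitters' processing notes name bcl2fastq, STAR 2.6.1c, featureCounts 1.6.4 and mm10. The annotation release, the strand setting and the handling of reads with several matches are not given in the sources used here. The study states that its sequencing replicates were biological and independent. Whether a genotype had more than 1 culture line is not given in the sources used here, so genotype and culture line cannot be told apart.

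Counts of genes passing edgeR's filterByExpr (20588 genes with 99.88% of counts) were TMM-scaled and fitted in 1 model over all 8 libraries. The fit used edgeR 4.0.16 (R 4.3.3) with the quasi-likelihood test, robust dispersions and 4 residual degrees of freedom. Variance estimates were shared across genes, so p-values and intervals rest on more degrees of freedom than these 4. The common biological coefficient of variation, the spread between replicates beyond counting noise, was 3.39%. P-values are thus relative to the spread between replicate libraries of a group, and variation between culture lines was not tested. Tests were two-sided and p-values were Benjamini-Hochberg adjusted over all tested genes, with a threshold of 0.05. Of 200 genes changed in simulated data for NRRA against Veh in Stra8KO, 196 were recovered over 19937 genes. The simulation used the same spread for every gene and changed no genes with few counts. Its recovery therefore does not apply to T or to genes with a wider spread. Replicates differed by more than counting noise (mean chi-square 1.86 to 4.12 per gene) and correlated at Spearman 0.995. Depth limits chiefly T.

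Coordinates came from GENCODE M21 (GRCm38) by identifier, and sequences from RefSeq. Genes named from the lists were the 3 largest changes among those called in each NRRA comparison and in the difference between them. A gene that met this rule is not reported here. Mycn and Ccl9 were named after their values were seen. The 8 genes and all lists were chosen with earlier results of these data known. Alternatives were DESeq2 1.42.0 (Wald test and size factors), total counts, pan-germ scaling, other count filters, a replicate block, fits to the libraries of a comparison alone, stricter thresholds and leaving out each library. Wild-type cultures were not analysed here.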

Additional observations from a re-analysis of the deposited data

Results flagged for a closer look

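For 19 of the genes named, the response to NRRA was unequal between genotypes by the test of the difference itself (edgeR quasi-likelihood, adjusted over all tested genes). Values are the log2 effect in Stra8KO minus that in the cultures with the label Spo11KO. Among the receptors and targets it was 4.62 for T, 2.95 for Lhx1, 2.82 for Etv5, 2.65 for Gfra1, 2.16 for Ret, 1.86 for Bcl6b and 0.28 for Pou3f1. In the GDNF family it was 2.09 for Gfra3 (SE 0.508, mean of 9 counts in Stra8KO Veh), 0.20 for Ncam1 (edgeR adjusted p = 0.0323) and -0.85 for Nrtn. Downstream of RET it was 0.78 for Fyn, 0.15 for Grb10 (edgeR adjusted p = 0.0483, at the threshold), -0.60 for Gab2 and -0.78 for Cblb. Among other genes linked to GDNF or ETV5 it was 4.19 for Nanos2, 3.81 for Egr3, 2.70 for Id4, 2.47 for Egr2 and 1.12 for Cxcr4. With 2 libraries per group no single library could be examined as an outlier.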

How the results depend on the processing

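Over all alternatives, 320 of 326 counts of calls stayed within 1.5 times the reported count, and 676 of 712 fold changes of the 8 genes kept direction and call. The CPM levels moved more. Of 64 group means of the 8 genes under total counts or pan-germ scaling, 50 moved by at least the standard deviation between the 2 libraries. With a fold change of at least 2 required, the genes called of the 8 went from 7 to 1 in Stra8KO (NRRA against Veh) and from 8 to 4 between genotypes in Veh. Under this rule Gdnf and Pou3f1 lost their call for NRRA in cultures labelled Spo11KO. Ret and Pou3f1 lost it between genotypes in NRRA, and Pou3f1 for the difference between effects. The share of all tested genes passing this rule was not computed. For the difference between the NRRA effects the RET signalling genes called went from 18 to 11 with the DESeq2 Wald test and to 11 to 16 with 1 library left out. Pan-germ scaling, which only uses the 8 pan-germ genes, reversed the genotype difference in Veh for Etv5 (0.26), Bcl6b (0.26) and Pou3f1 (0.27) and in NRRA for Pou3f1 (0.55), and left that of Gfra1 in Veh near 0 (0.021, edgeR adjusted p = 0.726). It also called Gdnf in Stra8KO (-0.40, edgeR adjusted p = 0.00267). The share of higher calls among all genes called moved with total counts from 49.2% to 61.8% (NRRA, cultures labelled Spo11KO), from 54.7% to 39.5% (genotypes, NRRA) and from 59.2% to 38.7% (difference between effects). With pan-germ scaling it was 25.1% and 26.1% for NRRA in Stra8KO and in cultures labelled Spo11KO, and 98.4% and 97.2% for genotypes in Veh and NRRA. Correlations of deviations between groups by replicate number were -0.07 to 0.14, highest between Veh and NRRA labelled Spo11KO. With 2 libraries per group these values cannot settle whether libraries were paired. With a replicate block 6 of the 8 genes were called in Stra8KO instead of 7, as T had an adjusted p of 0.0534, and the other counts over the 8 genes did not change. The cause of these shifts was not tested.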
